A study of Mus musculus with 2 samples.

Results

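The 10 lysosomal peptidase genes Ctsa, Ctsb, Ctsc, Ctsd, Ctsh, Ctsk, Ctsl, Ctss, Ctsz and Lgmn were followed across the cell types of the mouse aortic arch and across 2 diets. They were found by symbol among the 31053 genes counted, and each symbol matched 1 gene. Single-cell RNA sequencing with 10x Genomics was performed on 1 library of a normal diet group (ND) and 1 library of a high fat diet group (HFD). Both libraries came from male Apoe−/− mice on a C57BL/6 background, 16 weeks old, after 12 weeks on the diet from week 4 of age, and each library pooled 2 aortas. Both groups lack Apoe, so no mouse with a working Apoe gene enters a comparison. As the animals of a group were pooled, the spread between mice is not known, and no difference was tested.

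Cathepsins are proteases of the lysosome that are made as inactive precursors and cut to their active form at acid pH. Ctsb, Ctsl, Ctss, Ctsk, Ctsh, Ctsz and Ctsc are cysteine peptidases of the papain family, Ctsd is an aspartic protease, Ctsa is a serine carboxypeptidase, and Lgmn (legumain) is an asparaginyl endopeptidase that processes other cathepsins. Macrophages of atherosclerotic plaques are a well-known source of cathepsins, and secreted Ctss, Ctsk and Ctsl can cut elastin and collagen of the arterial wall.

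After filtering, 5416 ND cells and 2739 HFD cells were kept, with 27137322 and 17191279 UMIs (unique molecular identifiers, a count of captured transcripts). They came from 10234 ND and 14225 HFD barcodes, and the filter left out 17.3% of the ND and 58.4% of the HFD UMIs. Barcodes with at least 200 genes but over 30% mitochondrial UMIs numbered 2299 in ND and 7215 in HFD. The median cell had 3732.5 UMIs and 16.8% mitochondrial UMIs in ND, and 5336 UMIs and 21.9% in HFD. Of the kept barcode sequences, 1 occurred in both libraries. Cells were assigned to types by the UMIs of marker genes, none of which is a member. Macrophages were cells with at least 4 UMIs from at least 2 of the complement genes C1qa, C1qb and C1qc, and there were 324 in ND and 464 in HFD. Of macrophage genes outside the gate, Csf1r stood at 933 counts per 1000000 UMIs (CPM) in these ND cells and 463 in the HFD cells, Adgre1 at 549 and 295, and Fcgr1 at 112 and 142, while the T cell markers summed to 0.639 and 2.47. Apoe itself, read at the 3′ end, was counted at 46.3 CPM over all kept ND cells and at 49.1 CPM over all kept HFD cells. A level is the sum of a gene's UMIs over a group of cells, as CPM of that group. Intervals in parentheses are exact at 95%, cover counting error only and say nothing of the variation between mice. In a summed level, fewer cells with a transcript and fewer transcripts per cell cannot be told apart.

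The members lie on 7 chromosomes of GRCm38. Ctsk (chr3:95499256-95509362) and Ctss (chr3:95526786-95556403) are neighbours on the plus strand, 17423 bp apart. Ctsd (chr7:142375911-142388038) and Ctsl (chr13:64359337-64370890) lie on the minus strand, and each overlaps a predicted gene on its own strand, Gm49369 and Gm49230. Ctss likewise overlaps Hmgb1-ps5 on its own strand. Reads in a shared part may not have been counted for the member. Lysosomal genes often carry the E-box CACGTG near their start, a letter run bound by Tfeb and its relatives. RefSeq promoters (GRCm38.p6, from 250 bases before to 50 after a start) were at hand for 8 of the 10 members, not for Ctsb and Ctsh. CACGTG, which reads the same on both strands, was found in 4 of these 8, against 8.09% of all genes with a promoter. The longer TCACGTGAC, searched on both strands and holding CACGTG within it, was found in Ctsa and Ctsd, against 0.895% of genes. A match is a description of the letters in the window. The windows below are printed on the strand of the gene, 5′ to 3′, with CACGTG in capitals, to show how the flanks differ between Ctsd and Ctsl, which had the largest diet ratios among the members with many counts, and the other members that hold the motif.
Ctsd: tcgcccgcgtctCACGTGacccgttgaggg
Ctsl: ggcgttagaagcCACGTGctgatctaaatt
Ctsa: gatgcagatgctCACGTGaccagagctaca
Lgmn: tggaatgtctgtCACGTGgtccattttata
The Ctsd window (chr7:142387908-142387937, minus strand) begins its E-box 98 bases before the RefSeq start used, which is position -98. That start and the one used for Ctsl lie inside the gene spans given above, downstream of their outer ends. The E-box of Ctsl (chr13:64370739-64370768, minus strand) begins at -236, that of Ctsa (chr2:164833766-164833795, plus strand) at position 6 counted from the start of an alternative transcript, and that of Lgmn (chr12:102439124-102439153, minus strand) at -49 of an alternative transcript. Ctsd and Ctsa each hold a further CACGTG in these promoters, at -245 and at -12.

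The first question was which cells of the arch held the transcripts. Among cell types with at least 20 cells, 8 of the 10 members had their highest level in macrophages in both libraries, against 3.01% of all genes with at least 100 UMIs. With every cell thinned to 1000 UMIs, 5 members kept this place in both libraries. The exceptions were Ctsk and Ctsl. Ctsk, the collagen-cutting cathepsin known from osteoclasts, was highest in fibroblasts, at 114 CPM in ND and 123 in HFD, with macrophages next at 9.58 and 27.2. Ctsl, a broad endopeptidase, was also highest in ND fibroblasts, at 878 (848 to 908), above 561 (525 to 600) in ND macrophages. In HFD the order was the other way round, with 896 in fibroblasts and 2158 in macrophages.

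**Figure D1:**
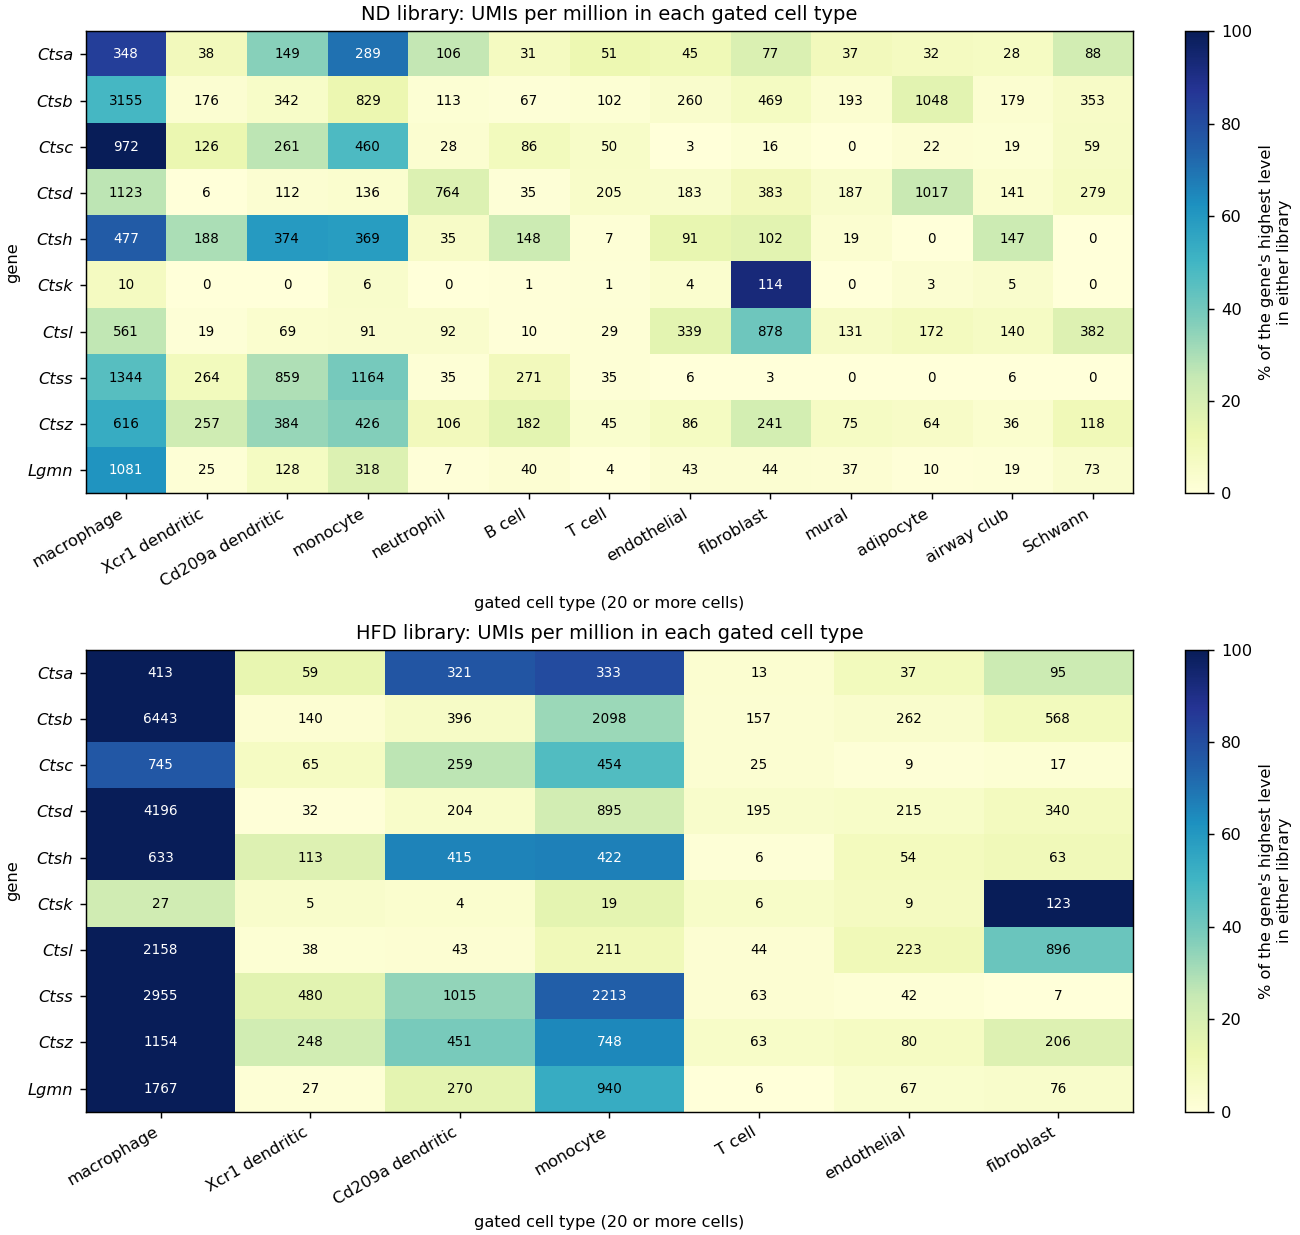
Summed level of each member (CPM, numbers in the cells) in every gated cell type with at least 20 cells, ND above and HFD below, with colour as the percent of that gene's highest level in either library. Most rows are darkest in macrophages, Ctsk is darkest in fibroblasts, and Ctss is close to 0 in fibroblasts.

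The place of macrophages at the top was clear for some members and close for others. Ctsb, an endopeptidase and carboxypeptidase of broad use, stood at 3155 (3068 to 3245) in ND macrophages, well above the 1048 of adipocytes and 829 of monocytes that came next. Ctsa, which also protects lysosomal sialidase and galactosidase, did not separate from monocytes, with 348 against 289 in ND and 413 against 333 in HFD and overlapping intervals. In ND the intervals also overlapped between macrophages and the next type for Ctsd (1123 against 1017 in the 20 adipocytes, and 750.1 against 854 without the 3 richest cells of each), Ctsh (477 against 374 in Cd209a dendritic cells) and Ctss (1344 against 1164 in monocytes). In HFD only Ctsa overlapped with its neighbour.

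Ctss and Ctsc were low in fibroblasts, whereas Ctsd and Ctsb were found in many types. Ctss, which trims the invariant chain of MHC class II, was found at 3.47 CPM in ND fibroblasts and 7.0 in HFD fibroblasts, from 13 UMIs in each, 387-fold and 422-fold below macrophages of the same library. Ctsc (dipeptidyl peptidase I, the activator of granule proteases) stood at 15.8 and 16.7 in fibroblasts, against 972 and 745 in macrophages. By contrast Ctsd, a main housekeeping protease of the lysosome, was widely spread, at 764 in ND neutrophils, 383 in ND fibroblasts and 183 in ND endothelial cells. Ctsb was likewise found in every type, from 66.9 in B cells upwards in ND.

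The second question was how macrophages of the 2 diets differed. The summed level of the members was 9688 CPM in ND macrophages and 20491 in HFD macrophages, 2.12-fold higher in HFD. Of the 10 members, 7 were at least 1.5-fold higher in HFD, against 8.44% of the 4979 genes with at least 100 UMIs in both groups together, and 0 were at least 1.5-fold lower, against 14.7%. The median log2 ratio was 0.97 over the members and -0.09 over all of these genes. Mitochondrial share moved with diet too, at a median of 17.6% in ND and 20.9% in HFD macrophages, and depth with it, at 4374.5 and 5914 UMIs per cell; their part in the ratios was not tested.

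Ctsl and Ctsd had the largest ratios among members with many counts. Ctsl stood at 561 in ND and 2158 in HFD macrophages, a log2 ratio of 1.94 (1.84 to 2.05). Ctsd stood at 1123 and 4196, a log2 ratio of 1.90 (1.83 to 1.97). Both were more than 3-fold higher in HFD, by more than their counting error.

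Ctss, Ctsb, Ctsz and Lgmn formed a middle range. Ctss was 1344 in ND and 2955 in HFD, a log2 ratio of 1.14 (1.07 to 1.21), and Ctsb was 3155 and 6443, at 1.03 (0.98 to 1.07). Ctsz, a carboxypeptidase also called cathepsin X, went from 616 to 1154 with a log2 ratio of 0.91, and Lgmn from 1081 to 1767 with 0.71. The 7th member past 1.5-fold, Ctsk, rests on 15 ND and 88 HFD UMIs, and 53.4% of the latter came from 3 cells.

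Ctsa, Ctsh and Ctsc were within 1.5-fold. Ctsa was 348 in ND and 413 in HFD, a log2 ratio of 0.25 (0.10 to 0.39), and Ctsh, an aminopeptidase, was 477 and 633, at 0.41 (0.29 to 0.53). Ctsc was the only member with a lower level in HFD, 972 in ND and 745 in HFD, a log2 ratio of -0.38 (-0.48 to -0.29). With limits of 20% and 10% on mitochondrial UMIs it passed 1.5-fold, at -0.72 and -0.69.

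**Figure D2:**
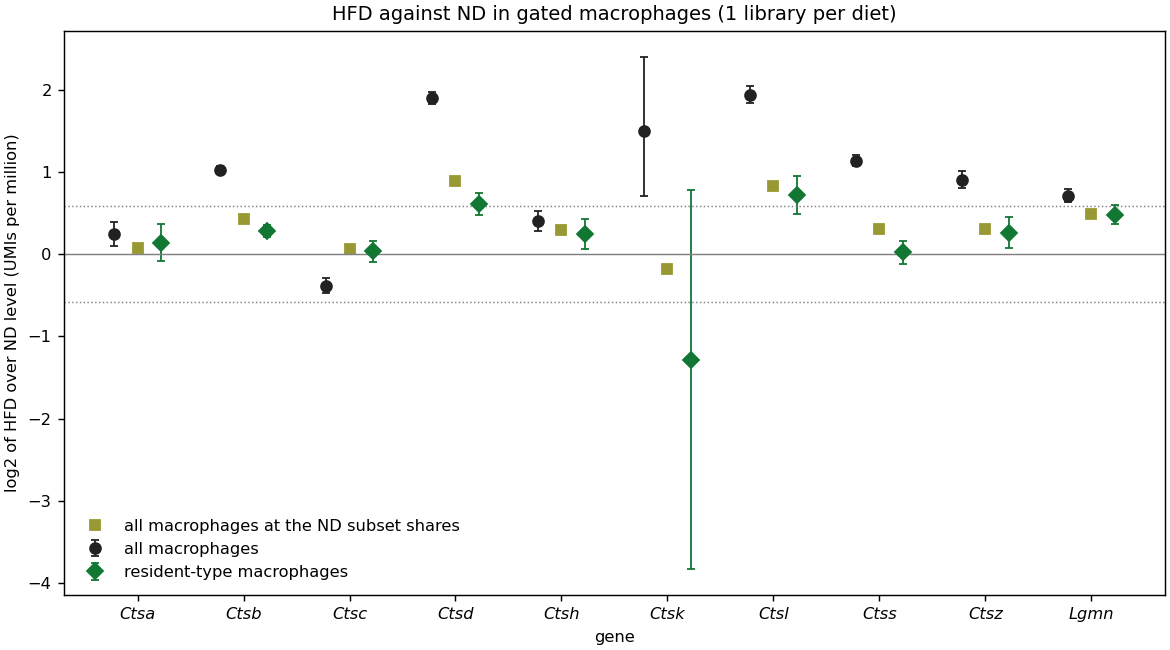
Log2 ratio of HFD over ND for each member in all macrophages (circles, with exact 95% intervals), in all macrophages with HFD recombined at the ND subset shares (squares) and in resident-type macrophages (diamonds, with intervals); dotted lines mark 1.5-fold. Ctsd and Ctsl lead in each series, and most ratios of all macrophages shrink once the subset shares are held equal.

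A few ND cells carried a large part of some sums. Of the Ctsl UMIs in the 324 ND macrophages, 58.2% came from 3 cells, and of Ctsd 36.1%. Leaving out the 3 cells richest in the given member in each library, a setting chosen after the data were seen, put Ctsl at 244 in ND and 1647 in HFD (log2 ratio 2.76) and Ctsd at 750.1 and 3913 (2.38). The median per-cell level of Ctsl was 160 in ND and 319 in HFD, a smaller gap than that of the sums. For Ctsb the medians were 2343 and 4266, for Ctsd 457 and 1436, and for Ctss 942 and 1482.

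The macrophages were then divided by markers. Resident-type cells had at least 2 UMIs of Lyve1, Folr2 and Cbr2, genes of long-lived tissue macrophages, and under 2 of Gpnmb and Trem2. Foam-type cells had the reverse, as Gpnmb and Trem2 are known from lipid-loaded macrophages. The names stand for these gates only. Resident-type cells were 210 of 324 macrophages in ND (64.8%) and 167 of 464 in HFD (36.0%), and foam-type cells were 22 (6.79%) and 147 (31.7%). Cells with both marker sets numbered 21 and 65, and cells with neither 71 and 85. Foam-type HFD cells were deeper than resident-type ones, with medians of 8514 and 5133 UMIs, and had fewer mitochondrial UMIs, with medians of 15.9% and 23.2%. With a limit of 20% on mitochondrial UMIs, 109 HFD foam-type but 41 resident-type cells were left, of 205 HFD macrophages. With no limit they were 218 and 303 of 887, so the HFD subset shares moved with the limit.

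Within the HFD library, Ctsl, Ctsd, Ctss, Ctsz and Ctsb were higher in foam-type cells and Ctsc in resident-type cells. Of the 9 members with at least 100 UMIs, 5 were at least 1.5-fold higher in foam-type than in resident-type cells, against 24.5% of all genes tested, and 1 was lower, against 21.2%. Ctsl was 3536 in foam-type and 448 in resident-type cells, a log2 ratio of 2.98 (2.83 to 3.13). Ctsd was 7181 and 1230 (log2 2.55), Ctss 4664 and 961 (2.28), Ctsz 1722 and 570.2 (1.59) and Ctsb 9716 and 3697 (1.39). Ctsc went the other way, with 356 in foam-type and 1165 in resident-type cells, a log2 ratio of -1.71 (-1.87 to -1.56). Lgmn (2163 and 1527), Ctsa (500.3 and 365) and Ctsh (719 and 599.8) stayed within 1.5-fold.

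In the ND library the same division rests on 22 foam-type cells. There, 4 of 9 members were at least 1.5-fold higher in foam-type cells, against 13.2% of genes, and 0 were lower, against 23.5%. Ctsl did not differ beyond counting error, at 334 in foam-type and 272 in resident-type cells, a log2 ratio of 0.29 (-0.17 to 0.73), and without the 3 richest cells of each group it was 100.1 and 254, the other way round. Ctsd was 2085 and 805, but 76.3% of its foam-type UMIs came from 3 cells, and without the 3 richest cells of each group it stood at 716 and 728. Ctsb was 5050 and 3031, and 2831 and 2951 without such cells, while Ctsz was 930 and 476, and 624 and 457, which is under 1.5-fold. Ctss (1912 and 947) was 1358 and 908 without such cells, just under 1.5-fold.

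**Figure D3:**
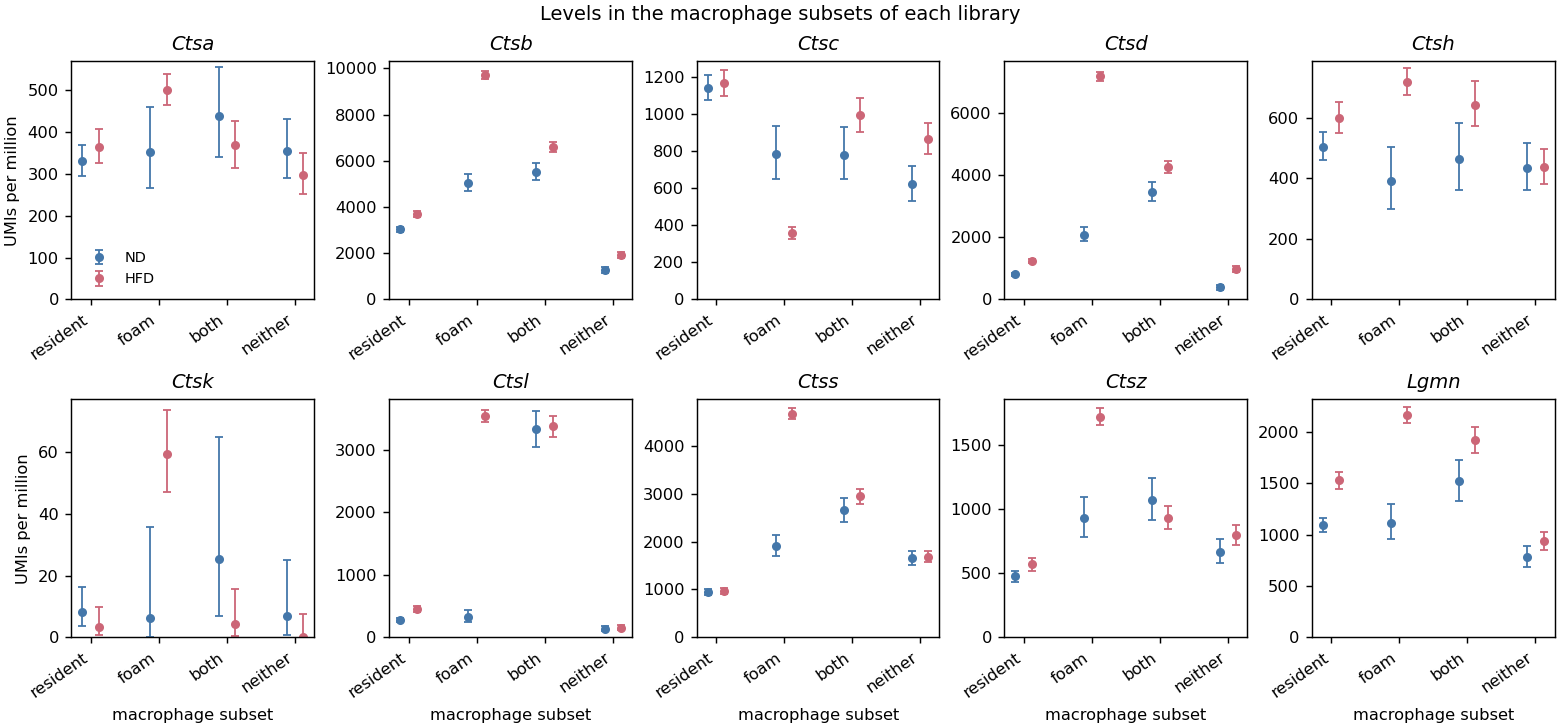
Level of each member (CPM, axis from 0, own scale per gene) in the 4 macrophage subsets, ND in blue and HFD in red, with exact 95% intervals of counting error. Foam-type HFD cells stand highest for Ctsb, Ctsd, Ctss and Ctsz and lowest for Ctsc.

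Cells with both marker sets or with neither filled in the picture. In HFD, cells with both sets had Ctsl at 3375, close to foam-type cells, yet 71.0% of these UMIs came from 3 of the 65 cells, and 1101 remained without them. Their Ctsc level was 992, between the 356 of foam-type and the 1165 of resident-type cells. Cells with neither set had less Ctsb than resident-type cells, 1253 against 3031 in ND and 1926 against 3697 in HFD. They had more Ctss, 1656 against 947 in ND and 1684 against 961 in HFD, so that Ctss and Ctsb went in opposite directions in both libraries. Among members with at least 100 UMIs, Ctss was the only one at least 1.5-fold higher in cells with neither set, 1 of 9 in ND against 8.42% of genes and 1 of 9 in HFD against 14.7%, while 4 of 9 in ND were lower, against 25.4%, and 3 of 9 in HFD, against 19.6%.

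Within resident-type cells the diet ratios were smaller. There, 2 of 9 members were at least 1.5-fold higher in HFD, against 3.24% of genes, and 0 were lower, against 9%. These were Ctsl, 272 in ND and 448 in HFD (log2 0.72, 0.49 to 0.95), and Ctsd, 805 and 1230 (0.61, 0.48 to 0.75). Ctss (947 and 961) and Ctsc (1139 and 1165) were level within counting error. In foam-type cells, 7 of 9 members were higher in HFD, against 20.6% of genes, and 1 was lower, against 15.3%. Ctsl went from 334 to 3536 there and Ctsc from 783 to 356, with only 22 cells on the ND side. The cells that passed this gate were not alike in their markers, as Gpnmb and Trem2 summed to 1007 in ND and 4767 in HFD and the monocyte markers to 860 and 302, and their part in these ratios was not tested. When the 4 HFD subsets were recombined at the ND shares of UMIs, a setting chosen after the data were seen, 2 of 10 members were at least 1.5-fold higher, Ctsd (log2 0.89) and Ctsl (0.83), against 4.12% of genes, and 0 were lower, against 8.6%. Ctsb then stood at 0.43, Ctss at 0.31, Ctsz at 0.31, Lgmn at 0.49 and Ctsc at 0.06.

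The same relation appeared as a gradient. Each HFD macrophage was thinned to 1000 UMIs so that depth was equal, and cells were ordered by their summed Gpnmb and Trem2 UMIs, in bins of at least 20 cells. From the 289 cells without such a UMI to the 37 cells with 5 to 9, mean Ctsb went from 3.55 to 11.6 UMIs per 1000, Ctsd from 1.37 to 8.92 and Ctss from 1.38 to 5.68. Each of these means was higher in every step, with the 65 cells with 1 UMI and the 54 cells with 2 to 4 in between. Mean Ctsc was lower in every step, from 1.05 to 0.270. Lgmn went from 1.56 to 2.59. In ND, where only the bins of 0 and 1 UMI held enough cells (281 and 36), mean Ctsb was 2.45 and 3.50 and mean Ctsd 0.644 and 0.806.

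**Figure D4:**
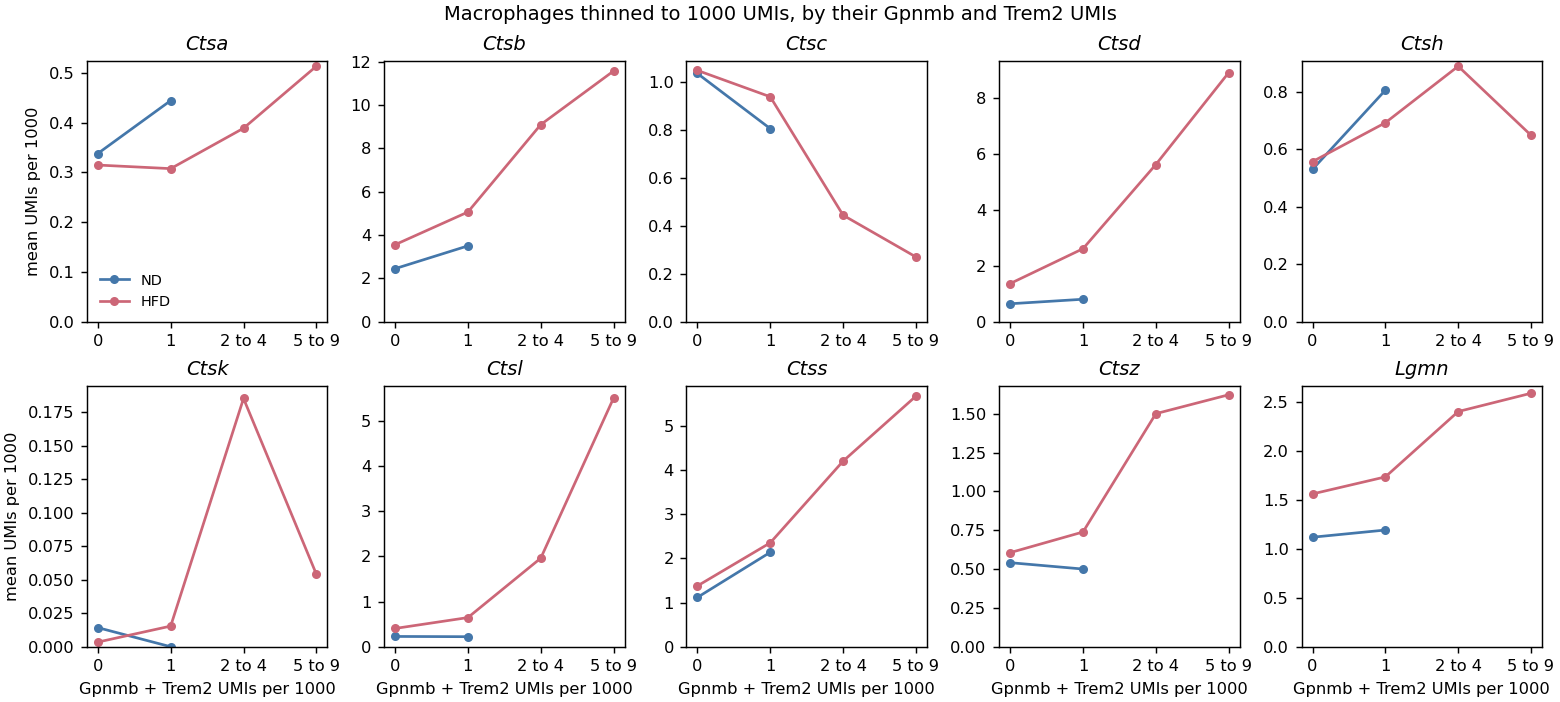
Mean UMIs of each member per 1000 UMIs of a cell (vertical axis from 0, own scale per gene) in macrophages grouped by their Gpnmb and Trem2 UMIs after thinning to 1000 UMIs, HFD in red and ND in blue. Ctsb, Ctsd, Ctsl and Ctss climb with the markers in HFD and Ctsc declines.

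Ctsl was spread over the cells in a way of its own. In thinned HFD macrophages, 295 of 464 had no Ctsl UMI, while the richest 10% of cells held 76.6% of all Ctsl UMIs, with up to 38 of 1000 UMIs in a single cell. For Ctsb the richest 10% held 29.3%, and for Ctsd 44.7%. At least 5 Ctsl UMIs were found in 28 HFD cells, of which 23 were foam-type, 5 had both marker sets and 0 were resident-type, and in 1 ND cell. These 28 cells had on average 12.5 Ctsd and 10.5 Ctsb UMIs, against 2.52 and 5.18 in the other 436 HFD macrophages, and 0.214 Ctsc UMIs against 0.908. The same 28 cells averaged 6.82 Gpnmb UMIs, against 0.688. The 1 ND cell held 14 Ctsl, 22 Ctsd and 9 Gpnmb UMIs.

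Across single macrophages, members went together to different degrees. After thinning, Spearman's rho between Ctsb and Ctsd was 0.40 over 322 ND cells and 0.60 over 464 HFD cells, as a description over cells of 1 library that share its depth. Within HFD subsets it was 0.32 in resident-type and 0.46 in foam-type cells. Ctsd and Ctsl had a rho of 0.53 over the 147 foam-type cells of HFD, of which 76 had no Ctsl UMI. Over the 167 resident-type cells of HFD rho was 0.04, and 105 of these had no Ctsl UMI. For Ctsb and Ctsc rho was -0.24 over all HFD macrophages and 0.15 over ND macrophages. Within HFD subsets it was -0.06 in resident-type and -0.14 in foam-type cells. Of the 45 pairs, 43 in ND and 32 in HFD had a rho between -0.2 and 0.2, where sparse counts allow no reading.

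Monocytes and dendritic cells were few. Monocytes, gated on at least 3 of Ly6c2, Plac8, Chil3, Ccr2 and Csf1r outside the macrophage and dendritic cell gates, numbered 39 in ND and 34 in HFD. Of 8 members with at least 100 UMIs, 5 were at least 1.5-fold higher in HFD monocytes, against 5.9% of genes, and 0 were lower, against 16%. Ctsd was 136 in ND and 895 in HFD, Ctsb 829 and 2098, and Lgmn 318 and 940. The 3 richest of the 34 HFD cells held 45.7% of the Ctsd and 45.1% of the Ctsb UMIs, and without them Ctsd stood at 541 and Ctsb at 1302. Markers moved with diet in the same gate, with Gpnmb and Trem2 at 22.7 in ND and 595 in HFD, the C1q genes at 28.4 and 128 and the monocyte markers at 6930 and 4496, and their part in the ratios was not tested. Ctsc (460 and 454) and Ctsa (289 and 333) were level within counting error.

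The dendritic cell groups differed in Ctss and Ctsh. Cd209a dendritic cells had more Ctss than Xcr1 dendritic cells, 859 against 264 in ND and 1015 against 480 in HFD. Ctsh was 374 against 188 in ND and 415 against 113 in HFD. In ND, 2 of the 3 members with at least 100 UMIs were at least 1.5-fold higher in Cd209a cells, against 16.6% of genes, and in HFD 4 of 4, against 15.3%. Lgmn, with few counts, was 128 against 25.1 in ND and 270 against 27.0 in HFD. Groups held 21 to 45 cells.

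In the endothelium, Ctsh and Lgmn were higher in luminal-type than in capillary-type cells. Luminal-type cells (Pecam1 and Cdh5 with at least 2 of Cytl1, Vwf and Vcam1) numbered 187 in ND and 75 in HFD, and capillary-type cells (at least 2 UMIs of Gpihbp1) 1653 and 1020. The names stand for these gates, not for a place in the vessel. Luminal-type cells had medians of 5301 UMIs and 12.3% mitochondrial UMIs in ND, and of 5969 and 19.1% in HFD. Capillary-type cells had 3740 and 17.3% in ND, and 5338 and 22.7% in HFD. Of luminal-type cells, 8.56% in ND and 4% in HFD were in the top 6% of doublet scores. For capillary-type cells the shares were 0.73% and 2.94%. The part of these differences in the ratios was not tested. The remaining endothelial cells, 24 lymphatic-type and 90 others in ND and 6 and 23 in HFD, are not described gene by gene. The members summed to 1046 CPM in the ND others and 4810 in the HFD others, against 2059 and 2213 in luminal-type cells. Ctsh was 666 in luminal-type and 3.17 in capillary-type cells of ND, a log2 ratio of 7.72 (7.14 to 8.35), and 518 and 9.55 in HFD, a log2 ratio of 5.76 (5.35 to 6.20). In HFD capillary-type cells 44.8% of the Ctsh UMIs came from 3 cells, and the level without them was 5.30. Macrophages stood at 477 in ND and 633 in HFD, so the luminal level was above theirs in ND and below it in HFD. Lgmn was 192 and 17.5 in ND (log2 3.46) and 416 and 25.4 in HFD (log2 4.04). Ctsd was 413 and 140 in ND and 384 and 180 in HFD.

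Of the members with at least 100 UMIs, 5 of 7 in ND were at least 1.5-fold higher in luminal-type cells, against 22.4% of genes, and 5 of 8 in HFD, against 25.2%. None of the 7 in ND was lower by this fold, against 24.4%, and 1 of 8 in HFD was, against 25.1%, namely Ctss (18.8 and 32.6, with an interval of the log2 ratio from -1.87 to 0.12). Among cells without any C1q UMI, 1 of 7 in ND was lower by this fold. Ctsl was 238 in luminal-type and 355 in capillary-type cells of ND, and 305 and 211 in HFD. C1q genes were low in luminal-type cells, at 4.88 CPM in ND and 32.0 in HFD, and the ratios of Ctsh without cells holding any C1q UMI were 7.77 and 5.68. Fibroblast markers summed to 465 and 791 and mural markers to 496 and 731 in ND and HFD luminal-type cells, against 56.9 and 47.7 and 221 and 325 in capillary-type cells; their part was not tested, and Ctsh stood at 102 and 63.0 in fibroblasts themselves.

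**Figure D5:**
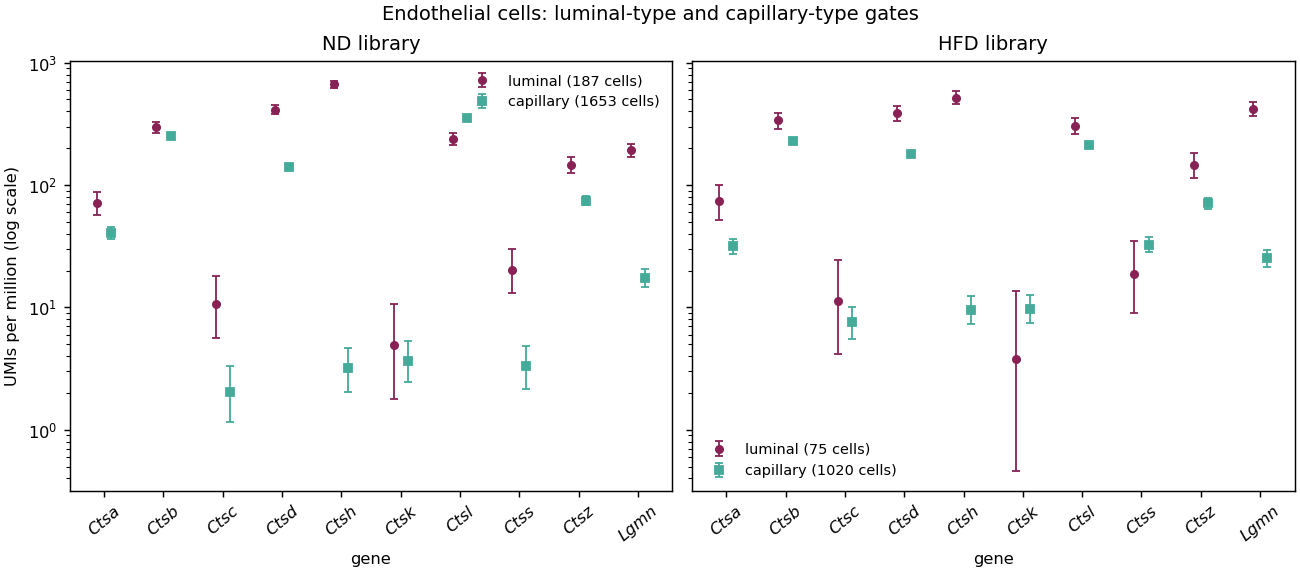
Level of each member (CPM, log scale) in luminal-type (circles) and capillary-type (squares) endothelial cells, ND on the left and HFD on the right, with exact 95% intervals. Ctsh and Lgmn show the widest gaps in both libraries.

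Between diets, only single members passed 1.5-fold, Lgmn in luminal-type cells and Ctsl and Ctss in capillary-type cells. In luminal-type cells, 1 of 7 members was at least 1.5-fold higher in HFD, against 6.72% of genes, which was Lgmn with 192 in ND and 416 in HFD (log2 1.12, 0.84 to 1.39), and 0 were lower, against 10.4%. In capillary-type cells, 1 of 7 was higher, against 5.22%, and 1 lower, against 14.1%. Counts of 1 in 7 are too small to set the members apart from all genes. Ctsl was 355 in ND and 211 in HFD, a log2 ratio of -0.76 (-0.85 to -0.66). Ctss was 3.29 in ND and 32.6 in HFD, a log2 ratio of 3.31, and 52.0% of the HFD UMIs came from 3 of 1020 cells. In the same cells Gpnmb and Trem2 summed to 0.380 in ND and 30.5 in HFD, and the C1q genes to 10.4 and 28.3. Without cells holding a UMI of any of these genes, Ctss was 3.32 in ND and 15.2 in HFD (log2 2.20), while Ctsl was 358 and 199 (-0.85).

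In fibroblasts, the cells richest in Ctsk, both Ctsk and Ctsl were level between diets within counting error. Ctsk was 114 in ND and 123 in HFD (log2 0.11, -0.13 to 0.34) and Ctsl 878 and 896 (0.03, -0.06 to 0.12). Of 8 members with at least 100 UMIs, 1 was at least 1.5-fold higher in HFD, against 4.02% of genes, and 1 was lower, against 13.5%. These were Lgmn, 44.1 in ND and 76.4 in HFD, and Ctsh, 102 and 63.0.

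Other lysosome genes of macrophages were taken from lists, in which Acp5, Pld3, Psap and Lipa were higher in HFD and Cst3 was lower. Of 59 listed genes, 46 had at least 100 UMIs, and 13 of these were at least 1.5-fold higher in HFD and 5 lower, beside the 8.44% and 14.7% of all genes, with a median log2 ratio of 0.28. Among hydrolases, 8 of 27 were higher and 3 lower. Acp5, the tartrate-resistant phosphatase, was 60.7 in ND and 266 in HFD, Pld3 163 and 563, and Lipa, the acid lipase that frees cholesterol from its esters, 159 and 349. Galns, Naglu, Gla, Sgsh and Gusb were higher by log2 ratios from 0.62 to 1.53, the interval of Sgsh reaching below 0, and Arsb, Manba and Ids lower, with ratios from -1.90 to -0.78.

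Among the 4 activators and lipid carriers, 2 were higher, namely Psap, the precursor of saposins, with 2745 in ND and 7252 in HFD, and Gm2a with 235 and 368. The cystatins, which inhibit cysteine cathepsins, went in opposite directions. Cstb, which acts inside cells, was 422 in ND and 801 in HFD (log2 0.92), and the secreted Cst3 was 4272 and 2618 (log2 -0.71). Of the genes of delivery and regulation, Igf2r, the mannose 6-phosphate receptor, was 8.94 and 33.0, Gnptab, which makes the mannose 6-phosphate tag, 10.9 and 29.3, and Tfe3 92.6 and 60.5. In resident-type cells, 0 of 29 listed genes with enough UMIs were higher in HFD and 2 were lower, among them Ids, beside 3.24% and 9% of all genes. Between foam-type and resident-type cells of HFD, 17 of 34 were higher and 2 lower, beside 24.5% and 21.2%. Cstb was 1271 and 357 there, and Cst3 2137 and 3349.

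Each member had its own set of most similar genes over 20 points, the gated types with at least 20 cells in either library, by Pearson's r of log2 levels with 10 added. Points from 1 library share its depth and preparation, and r is given as a description. Ctss was most like Lat2 (0.96), Ms4a6c and Evi2a, Ctsc like Ms4a6c, Adgre1 and Cybb, and Ctsa like Sirpa, Clec4a2 and Csf1r, which are genes of myeloid cells. Ctsb had Tmem37 and the peptidase gene Tpp1 among its 3 most similar genes, and Ctsd was most like the phospholipase gene Pla2g15 (0.83), Hgsnat and Tcn2, and Ctsz like Ifi207, Hexa and Grn. Lgmn was most like Tmem106a, Cndp2 and Grn, and Ctsh like B4galt5, Dhx58 and Tcirg1. Ctsl was most like Itgb5 (0.92), Cd63 and Itm2b, and Ctsk like Steap3, Opcml and Dnm1. Among the members themselves, Ctsc and Ctss had an r of 0.91, and Ctsl and Ctss one of -0.12.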

How the data were processed

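Aortic arch cells of 1 ND and 1 HFD library were measured. Values are UMI counts, deposited unnormalized as gene by barcode matrices. The matrix header names Cell Ranger 3.0.1, and the submitters' processing notes name mm10, Cell Ranger, bcl2fastq, UMI-tools, Seurat 3.2.0 and R 4.0.0. A barcode entered with 200 or more genes, 200 or more UMIs and a mitochondrial share of 30% or less. Kept cells were gated by marker UMIs, without clustering. Barcodes that passed gates of several lineages (637 ND, 401 HFD) were called mixed and left out, as were ungated ones (440 and 155). Doublets were otherwise not removed: Scrublet at its default threshold marked 83 cells of ND but 1 of HFD, where it had not worked, and an alternative left out the top 6% of scores.

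UMIs were summed per group and scaled to 1000000. Intervals are exact at 95%: Poisson for a level, conditional binomial for a log2 ratio. A gene was called at 1.5-fold, provided its UMIs in the compared groups reached 100. Per-cell comparisons used cells thinned to 1000 UMIs. With 1 library per diet there is no test and no p-value. The ratio step was tested on simulated data, drawn as independent Poisson counts, which the intervals also assume. The gathering of UMIs in a few cells was not simulated, so that test does not cover it. The members, gates and gene lists were chosen with earlier results of these data known. Genes named beside the members are the 3 most similar genes of each member, the listed lysosome genes past 1.5-fold between diets, gate markers and overlapping genes. Ids in resident-type cells and the cystatins between subsets were named after their values were seen. Some genes that this rule names are not reported here. Positions are from GENCODE M21. Calculations used Python 3.11.15, numpy 2.4.6, scipy 1.17.1, pandas 2.3.3, scanpy 1.11.5 and matplotlib 3.10.9. Tables joining both libraries were not used.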

Additional observations from a re-analysis of the deposited data

Results flagged for a closer look

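Ctsl went in opposite directions by diet in macrophages and in endothelial cells, past 1.5-fold in both sums. The log2 ratio of HFD over ND was 1.94 in macrophages and -0.61 in endothelial cells, and the difference between the types was not tested, as each diet has 1 library. Within the endothelium, Ctsl was 355 CPM in ND and 211 in HFD in capillary-type cells, but 238 and 305 in luminal-type cells.

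Barcodes above the mitochondrial limit that passed the macrophage gate also held the members. Per 1000000 non-mitochondrial UMIs, the members summed to 17310 (17009 to 17615) in 423 such HFD barcodes and to 9266 in 92 ND barcodes, against 25064 and 11503 in the kept macrophages of the same libraries. Barcodes with under 200 genes had 1680 in HFD and 1057 in ND.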

How the results depend on the processing

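No paired analysis was possible because each diet has 1 library. The summed log2 ratio of the members in macrophages (1.08) was 1.31 and 1.43 with at most 20% and 10% mitochondrial UMIs, 0.92 with no limit, 1.13 with mixed barcodes kept, 0.95 after thinning, 1.14 with a macrophage gate without the C1q genes, 1.13 without mitochondrial, haemoglobin and ribosomal genes, 0.97 with each cell weighted equally and 1.23 with median-of-ratios scaling. At the ND subset shares it was 0.45, and 2 members in place of 7 passed 1.5-fold. With limits of 20% and 10%, 1 member (Ctsc) was lower by that fold in place of 0. After thinning, 5 members in place of 8 were highest in macrophages in both libraries. At a limit of 10%, 18 HFD macrophages remained, too few for the order of types and, with 0 resident-type cells, for the subset comparison, so neither was run. Ctsk reversed to -0.40 at 10%, -0.18 at the ND shares, -1.28 in resident-type cells, -2.56 in cells with both marker sets and, for foam-type over resident-type cells, to -0.37 in ND. Ctsz reversed to -0.21 in cells with both marker sets, where 3 of the 21 ND cells held 78.1% of its UMIs. Without the 3 richest cells of this group in each library, Ctsz stood at 352 in ND and 749 in HFD. Members within 1.5-fold also changed sign: Ctsa was -0.25 in cells with both sets and -0.26 with neither, and Ctsc 0.06 at the ND shares, 0.03 in resident-type cells, 0.35 with both sets and 0.48 with neither. The cause was not tested. Of 110 planned single-member values of HFD over ND, 108 kept their direction and 45 moved outside the interval of the reported value. Of 100 of foam-type over resident-type, 98 kept theirs and 32 moved. Besides Ctsk, Ctsh changed sign there, from 0.26 in HFD to -0.37 in ND. Under alternatives chosen after seeing the data, 48 of 58 kept their direction and 46 moved. Depth limits Ctsk, and the ND groups of 22 foam-type cells and of 21 cells with both marker sets limit every comparison that uses them. The median log2 ratio of all genes was -0.09.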

Other observations

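Cells outside the gates held the members too. Of the ungated HFD barcodes, 21 had at least 2 UMIs of Gpnmb and Trem2. The members summed to 28153 per 1000000 non-mitochondrial UMIs in them, against 25064 in all kept HFD macrophages. Kept HFD foam-type cells, gated on the same 2 genes, stood at 30616 per 1000000 of all their UMIs, mitochondrial ones included. In ND there were 3 such ungated barcodes, with 29428. None of the ungated barcodes passed the macrophage gate, and they entered no macrophage group. Mixed barcodes with at least 2 UMIs of Gpnmb and Trem2 numbered 43 in HFD and 16 in ND. In these the members summed to 16227 and 8435 per 1000000 non-mitochondrial UMIs.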
